A study of Mus musculus with 32 samples.

Results

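The transcripts of 7 CC chemokines, Ccl2, Ccl3, Ccl4, Ccl5, Ccl7, Ccl12 and Ccl20, were followed in mouse thymocytes after gamma irradiation of the mice. They are the probes whose gene name in the scanner files is one of these 7, which gave 9 probes of 41174 and 7 gene names of 28781. All 7 genes passed the filter on dim probes and were among the 20534 genes tested.

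RNA of thymocytes of 6-week-old C57Bl/6 mice was measured on 32 single-colour arrays, 1 array for each sample. P72 and R72 mice carry the proline and the arginine form of a polymorphic codon of p53, and each was measured at 0, 2 and 4 h after 5 Gy of gamma rays with 4 arrays for each time. For each of the p53-/- and p53+/+ mice there were 2 arrays without irradiation and a single array per time after it, at 2 h and at 4 h. The series asks how p53 genotype shapes the transcription that follows irradiation. Each sample is a pool of 2 mice, labelled as 1 male and 1 female, and the 4 P72 or R72 samples of a time are independent experiments per the series text. The labels do not say how the alleles were made, nor if the pair of untreated samples in p53-/- or in p53+/+ were separate pools, so their spread may be technical.

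CC chemokines are small secreted proteins that draw leukocytes through receptors of the Ccr family. Ccl2, Ccl7 and Ccl12 act on Ccr2 and draw monocytes. Ccl3, Ccl4 and Ccl5 draw monocytes, dendritic cells and T cells, and Ccl20 acts on Ccr6. Several of these genes are known targets of the transcription factor NF-kB, and in the thymus dying thymocytes are cleared by macrophages, a cell type known to secrete many CC chemokines.

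Of the 7 genes, 6 are on chromosome 11. Per the file headers (build mm7), the selected probes lie at chr11:82118723-82118782 for Ccl2, chr11:82128729-82128788 for Ccl7 and chr11:82184783-82184842 for Ccl12, all on the plus strand and within 66.1 kb. A second group within 139 kb holds Ccl5 at chr11:83595699-83595758 and Ccl3 at chr11:83717761-83717820 on the minus strand, and Ccl4 at chr11:83734455-83734514 on the plus strand. The Ccl20 probe lies alone at chr1:83327742-83327801 on the plus strand. Ccl7 and Ccl5 have a second probe each, at chr11:82128577-82128636 and chr11:83595850-83595905, whose levels correlated with those of the selected probe at r = 0.986 and r = 0.984 over the 32 arrays.

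The RefSeq promoter windows (GRCm38.p6, a build other than that of the probes), running from 250 bases before to 50 bases after the gene's start, held 3 of the 7 genes. They are shown because Ccl3 and Ccl12 rose after irradiation while no call was made for Ccl20 in the reported fit. Capitals mark motif matches and the rest is in lower case. The windows are Ccl3 at chr11:83649329-83649628 on the minus strand, Ccl12 at chr11:82101595-82101894 on the plus strand and Ccl20 at chr1:83116516-83116815 on the plus strand.
Ccl3: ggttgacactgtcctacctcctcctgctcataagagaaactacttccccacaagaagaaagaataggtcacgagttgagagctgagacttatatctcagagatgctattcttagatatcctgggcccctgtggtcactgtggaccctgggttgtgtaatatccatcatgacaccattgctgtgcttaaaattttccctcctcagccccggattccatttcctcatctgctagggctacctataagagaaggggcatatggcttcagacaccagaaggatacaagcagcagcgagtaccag
Ccl12: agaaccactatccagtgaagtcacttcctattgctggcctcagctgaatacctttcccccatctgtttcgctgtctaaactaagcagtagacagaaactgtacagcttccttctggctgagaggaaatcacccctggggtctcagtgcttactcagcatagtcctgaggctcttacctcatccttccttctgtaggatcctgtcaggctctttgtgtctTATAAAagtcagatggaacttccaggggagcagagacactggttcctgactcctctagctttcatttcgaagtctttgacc
Ccl20: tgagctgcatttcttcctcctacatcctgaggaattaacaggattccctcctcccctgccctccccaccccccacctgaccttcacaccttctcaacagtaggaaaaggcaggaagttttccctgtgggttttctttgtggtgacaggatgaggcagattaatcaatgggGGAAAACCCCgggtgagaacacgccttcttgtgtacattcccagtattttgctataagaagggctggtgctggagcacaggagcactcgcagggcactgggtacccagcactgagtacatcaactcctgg
Each window was searched on both strands for the NF-kB consensus decamer, the AP-1 site TGANTCA, the TATA box TATAAA and the p53 half-site decamer. These motifs were present in 8.46%, 7.81%, 13.6% and 8.36% of all 32851 windows. The Ccl12 window held TATAAA at -31 to -26 on the gene's strand. The Ccl20 window held an NF-kB decamer at -80 to -71 on the opposite strand. None of the 4 motifs was found in the Ccl3 window. A match is a description of these letters and not a site shown to be used.

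Between arrays the 75th percentile of signal lay at 268.3 to 1031 fluorescence units, 52.4% to 71.5% of probes were well above background, and no spot was saturated. Correlations across genes between arrays of one group lay between 0.9744 and 0.995. All 12 marker genes of double positive thymocytes, Cd4, Cd8a and Rag1 among them, were well above background on all 32 arrays. Of 2 Trp53 probes, one lay between -1.81 and -1.57 on the p53-/- arrays and between -1.14 and -0.57 on the p53+/+ arrays, and the other overlapped between them. The first lay between -7.00 and -3.65 on the P72 and R72 arrays, below both, and was higher at 4 h than at 0 h there. Which part of Trp53 was deleted is not given in the sources used here, so these probes are no check of the labels. Xist, the transcript of the inactive X chromosome, lay between -7.92 and -3.73 on replicates 1 and 3 of P72 and R72 and between 5.11 and 5.83 on replicates 2 and 4, which goes against pools of both sexes. Among the other arrays Xist was at 5.5 on both irradiated p53+/+ arrays, at -0.88 and -1.46 on the untreated p53+/+ arrays and between -8.82 and -7.2 on the p53-/- arrays, so in p53+/+ it differs with irradiation and between the irradiated genotypes. The file headers give 4 scan dates, one of which holds all p53-/- and p53+/+ arrays and no other. The irradiated p53-/- arrays lie on another slide than the irradiated p53+/+ arrays, each with an untreated array of the other genotype.

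Irradiation raised 5 of the 7 chemokine transcripts within 2 h in P72 (9.65% of all genes) and in R72 thymocytes (6.25%). Ccl2, Ccl7, Ccl3 and Ccl4 rose again between 2 h and 4 h in both, beside 21.5% and 16.1% of all genes. The R72 call for Ccl4 at 2 h was made in only 12 of 27 alternative fits. The Ccr2 ligands Ccl2 and Ccl7 and the inflammatory chemokine Ccl3 had the largest estimated increases in the reported fit. The place of Ccl3, dim when untreated, depends on the background correction. With normexp its 4 h difference was 2.08 in P72 and 1.10 in R72, while that of Ccl4 was at least 2.42 and 1.66 in every setting. A level here is the log2 signal of a probe minus the log2 75th percentile of its array, so a level of 0 is that percentile, and levels are compared within a gene only. In bulk thymocyte RNA, a change in the number of cells of a type and a change in RNA for each cell cannot be told apart.

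Ccl2, a monocyte chemoattractant, had levels of -5.56, -4.11, -4.61 and -5.09 at 0 h, -1.59, -1.15, -0.66 and -1.24 at 2 h, and 0.74, 1.01, 1.09 and 1.32 at 4 h on the P72 arrays. On the R72 arrays it had -3.91, -4.64, -4.68 and -4.41 at 0 h, -1.57, -1.12, -1.26 and -0.34 at 2 h, and 0.92, 0.92, 0.20 and 1.16 at 4 h. In each genotype the 3 times did not overlap, and every later time was higher. At 0 h 3 of 4 P72 and 4 of 4 R72 arrays were well above background. The P72 difference was 3.68 ± 0.30 on the log2 scale at 2 h against 0 h, which is 12.8-fold (limma, Benjamini-Hochberg adjusted p = 2.39e-08, ± is the standard error), and 5.88 ± 0.30 at 4 h against 0 h, which is 59-fold (limma, adjusted p = 8.77e-12). In R72 the increases were 10.1-fold at 2 h (adjusted p = 1.38e-07) and 37-fold at 4 h (adjusted p = 9.56e-11).

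Ccl7, another Ccr2 ligand, had levels of -7.68, -5.43, -5.82 and -6.64 at 0 h, -2.32, -2.44, -2.11 and -2.66 at 2 h, and -0.22, 0.01, -0.07 and 0.15 at 4 h on the P72 arrays. On the R72 arrays it had -7.02, -6.28, -5.94 and -7.06 at 0 h, -2.53, -2.54, -2.55 and -2.12 at 2 h, and -0.39, -0.67, -1.13 and -0.42 at 4 h. The times again did not overlap. At 0 h the probe was well above background on 1 of 4 P72 arrays and on 0 of 4 R72 arrays. The P72 differences were 4.01 ± 0.34 at 2 h and 6.36 ± 0.34 at 4 h (limma, adjusted p = 5.32e-08 and 2.3e-11), and no fold is given for them, since 3 of the 4 untreated values are not above background. For R72 only a bound can be given, with each 0 h array counted at the dimmest signal it called above background, or at the probe's own value where higher: Ccl7 was at least 9.46-fold higher at 2 h and at least 32.5-fold higher at 4 h (limma, adjusted p = 3.8e-08 and 1.03e-10). The bound holds for the reported background correction only, since with normexp the R72 difference at 4 h was 1.81 on the log2 scale. The second Ccl7 probe gave differences of 3.52 ± 0.21 and 5.85 ± 0.21 in P72 and 3.15 ± 0.21 and 4.99 ± 0.21 in R72 at 2 h and 4 h.

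Ccl12, a Ccr2 ligand known in the mouse, had a smaller increase, most of it present by 2 h. Its levels were -4.00, -2.69, -3.68 and -4.22 at 0 h, -1.42, -1.2, -1.26 and -1.60 at 2 h, and -1.25, -0.64, -0.84 and -0.64 at 4 h on the P72 arrays. On the R72 arrays they were -2.56, -3.15, -3.06 and -2.91 at 0 h, -1.62, -1.86, -2.05 and -1.07 at 2 h, and -0.62, -0.66, -1.64 and -0.99 at 4 h. Irradiated arrays lay above all untreated arrays of their genotype, while 2 h and 4 h overlapped. The increase over 0 h was 4.85-fold at 2 h and 6.99-fold at 4 h in P72 (limma, adjusted p = 1.28e-05 and 1.69e-07) and 2.41-fold and 3.85-fold in R72 (adjusted p = 0.00555 and 2.36e-05). The step between 2 h and 4 h was not called in P72 (0.53 ± 0.28, adjusted p = 0.159) or in R72 (0.67 ± 0.28, adjusted p = 0.0939). Without R72 replicate 3 at 4 h the R72 step was 0.90 (adjusted p = 0.0377).

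Ccl3, an inflammatory chemokine made by activated macrophages and other leukocytes, had levels of -5.12, -5.96, -5.97 and -5.57 at 0 h, -2.69, -2.37, -3.02 and -3.37 at 2 h, and -1.29, -1.46, -0.82 and -0.76 at 4 h on the P72 arrays. On the R72 arrays it had -4.44, -5.61, -5.71 and -5.91 at 0 h, -2.44, -2.75, -2.75 and -2.24 at 2 h, and -1.07, -1.32, -1.65 and -1.41 at 4 h. No time overlapped another. At 0 h it was well above background on 1 of 4 P72 and 2 of 4 R72 arrays, so the untreated level is only partly measured and no fold is given. The differences at 2 h and 4 h were 2.79 ± 0.28 and 4.57 ± 0.28 in P72 (limma, adjusted p = 6.17e-07 and 1.59e-10) and 2.87 ± 0.28 and 4.06 ± 0.28 in R72 (adjusted p = 4.98e-07 and 1.64e-09).

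Ccl4, its neighbour on chromosome 11 and a chemoattractant of monocytes and T cells, changed mostly between 2 h and 4 h. Its levels were -1.95, -2.19, -2.39 and -2.19 at 0 h, -1.32, -1.14, -1.28 and -0.82 at 2 h, and 0.50, 0.46, 1.05 and 1.34 at 4 h on the P72 arrays. On the R72 arrays they were -2.23, -2.80, -2.24 and -2.49 at 0 h, -1.82, -1.97, -1.75 and -1.57 at 2 h, and 0.47, -0.05, -0.15 and 0.51 at 4 h. The times did not overlap. The increase over 0 h was 2.06-fold at 2 h and 8.12-fold at 4 h in P72 (limma, adjusted p = 0.00123 and 4.1e-10) and 1.58-fold and 6.22-fold in R72 (adjusted p = 0.0315 and 4.92e-09). The step between 2 h and 4 h was 1.98 ± 0.20 in P72 and 1.97 ± 0.20 in R72. The R72 call at 2 h was lost without R72 replicate 2 or 4 at 0 h (adjusted p = 0.107 and 0.0686) and without R72 replicate 3 or 4 at 2 h (adjusted p = 0.0646 and 0.0741). It was also lost with median centring (0.55, adjusted p = 0.105), quantile normalization (0.59, adjusted p = 0.0676), the authors' deposited values (0.49, adjusted p = 0.0946) and no filter (0.66, adjusted p = 0.0519).

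Ccl5, a chemoattractant that T cells and dendritic cells also make, was bright at all times. Its levels were 2.50, 3.83, 3.22 and 2.64 at 0 h, 3.75, 3.67, 3.28 and 3.51 at 2 h, and 4.02, 4.09, 4.05 and 4.33 at 4 h on the P72 arrays. On the R72 arrays they were 3.77, 3.31, 3.67 and 3.34 at 0 h, 3.55, 3.54, 3.69 and 3.56 at 2 h, and 4.13, 3.89, 4.07 and 3.84 at 4 h. The untreated P72 arrays spread over the widest range, and all 4 h arrays lay above the 0 h arrays of their genotype. Ccl5 rose 2.11-fold in P72 at 4 h (limma, adjusted p = 0.000143). The R72 difference at 4 h was 0.46 ± 0.20 (adjusted p = 0.0678), and it was called without R72 replicate 1 at 0 h (0.54, adjusted p = 0.0494), with quantile normalization (0.61, adjusted p = 0.0225) and in the authors' deposited values (0.60, adjusted p = 0.0161). At 2 h the difference was 0.51 ± 0.20 in P72 (adjusted p = 0.0955) and 0.06 ± 0.20 in R72 (adjusted p = 0.873). Without P72 replicate 2 at 0 h, the highest untreated P72 array, the P72 value at 2 h was 0.77 (adjusted p = 0.00263). The P72 step between 2 h and 4 h was 0.57 ± 0.20 (adjusted p = 0.0352), against an uncalled 0.51 ± 0.21 on the second probe (limma, adjusted p = 0.0694). That call was lost without P72 replicate 2, 3 or 4 at either time, where the adjusted p lay between 0.0505 and 0.106, and with median centring, at 0.17 (adjusted p = 0.479).

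Ccl20, the Ccr6 ligand, was dim throughout and was called in none of these comparisons in the reported fit. Its levels ran from -5.61 to -4.18 at 0 h, -4.87 to -4.55 at 2 h and -5.09 to -4.20 at 4 h on the P72 arrays, and from -5.62 to -4.64, -6.03 to -4.70 and -5.24 to -4.72 on the R72 arrays. The times overlapped in both genotypes. The difference at 4 h was 0.34 in P72, with a 95% interval from -0.23 to 0.91 (limma, adjusted p = 0.335), and 0.20 in R72, with an interval from -0.37 to 0.77 (adjusted p = 0.604). The probe was well above background on 23 of 32 arrays. Normexp background correction with the lowest signals capped, chosen after seeing the data, called it higher at 4 h than 0 h in P72 (0.51, limma, adjusted p = 0.0162). It also called the R72 step from 2 h to 4 h (0.46, limma, adjusted p = 0.0433).

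**Figure D1:**
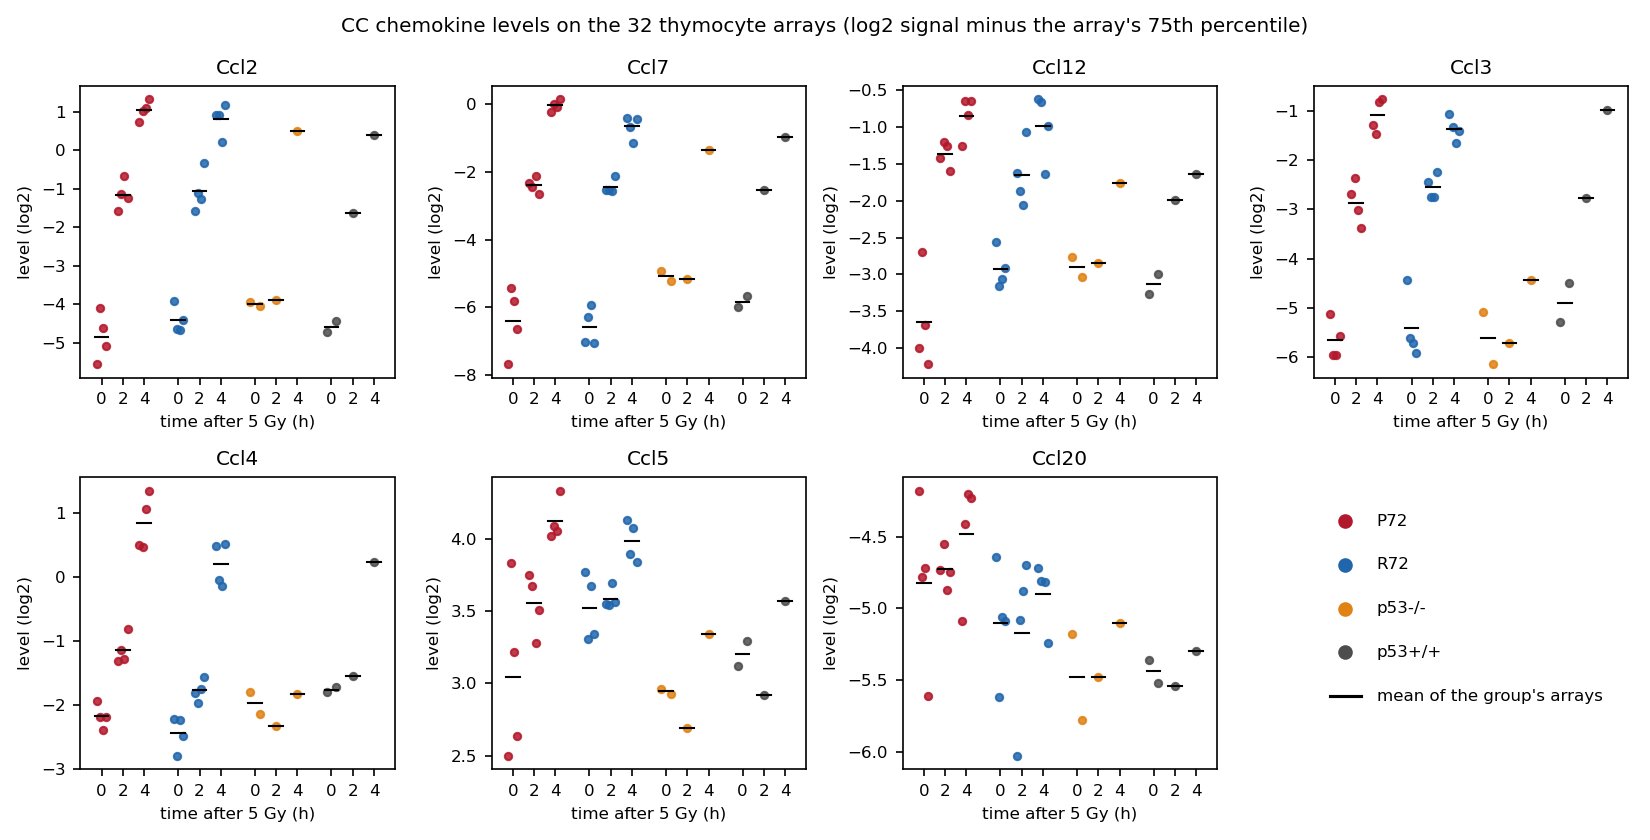
Level (log2 signal minus the log2 75th percentile of the array) of each chemokine on the 32 arrays, by genotype and hours after 5 Gy, with 1 point for each array and a bar at the group mean; the vertical scale differs between panels. Ccl2, Ccl7, Ccl3 and Ccl4 separate by time in P72 and R72, Ccl5 varies between 2.50 and 4.33, Ccl20 shows no order by time, and of the p53-/- arrays the one at 4 h stands apart for Ccl2 and Ccl7.

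Counted over the 7 genes, 5 rose at 2 h in P72, where 9.65% of all genes tested rose, and 5 rose at 2 h in R72, where 6.25% did. At 4 h against 0 h, 6 rose in P72 and 5 in R72, beside 35.8% and 28.8% of all genes. Between 2 h and 4 h, 5 rose in P72 and 4 in R72, beside 21.5% and 16.1%. The arrays of the later time lay wholly above those of the earlier time for 5 chemokines at 2 h in P72 (13.6% of all genes) and in R72 (7.12%), and for 6 at 4 h in P72 (32.4%) and in R72 (27.4%). The median difference at 4 h was 3.02 over the 7 genes in P72 and 2.64 in R72, beside medians of 0.11 and 0.09 over all genes. On the p53+/+ array at 4 h the median over all genes was 0.15, and differences are read relative to these shifts.

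The P72 and R72 arrays were scanned on 3 dates, and 2 of them hold P72 arrays at both 0 h and 4 h, as 2 do for R72. Ccl2 at 4 h against 0 h was higher by 5.71 and 6.05 within these dates in P72 and by 5.19 and 5.09 in R72. For Ccl7 these values were 6.45 and 6.26 in P72, and none is given for R72, where no 0 h array measured it. For Ccl3 they were 4.17 and 4.98 in P72 and 3.83 and 4.38 in R72. Ccl4 gave 2.55 and 3.49 in P72 and 2.73 and 2.67 in R72. Ccl12 gave 2.40 and 3.21 in P72 and 2.22 and 1.59 in R72, the last with an adjusted p of 0.0668. Ccl5 gave 0.89 (adjusted p = 0.0877) and 1.26 in P72, and Ccl20 -0.28 and 0.95. With normexp background correction the differences at 4 h stayed called and were smaller, at 3.70 for Ccl2, 2.97 for Ccl7 and 2.08 for Ccl3 in P72 and at 2.72 for Ccl2, 1.81 for Ccl7 and 1.10 for Ccl3 in R72, so the size of these differences depends on the background correction. The calls at 2 h were then lost for Ccl3 (0.92, adjusted p = 0.123) and Ccl4 (0.76, adjusted p = 0.0866) in P72. In R72 they were lost for Ccl7 (0.40, adjusted p = 0.325), Ccl3 (0.11, adjusted p = 0.793), Ccl12 (0.31, adjusted p = 0.339) and Ccl4 (0.00, adjusted p = 0.991). This normexp fit gave background means of -483.7 and -66.8 on R72 replicates 2 and 3 at 0 h, and their part was not tested. With each array's lowest signals capped, a form chosen after seeing the data, only the R72 call for Ccl4 was lost at 2 h (0.46, limma, adjusted p = 0.153). Split by Xist, Ccl2 at 4 h was higher by 5.77 on the high arrays and 6.00 on the low arrays in P72, and by 5.57 and 4.86 in R72.

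P72 and R72 thymocytes differed in none of the 7 transcripts at 0, 2 or 4 h by the adjusted test, where 0.92%, 1.28% and 1.24% of all genes were called in either direction. An unadjusted p under 0.05 was found for 2 chemokines at 0 h, 1 at 2 h and 1 at 4 h. Ccl4 was 0.63 ± 0.20 higher in P72 at 2 h, with a 95% interval from 0.25 to 1.02 (limma, adjusted p = 0.121), and 0.64 ± 0.20 higher at 4 h, with an interval from 0.26 to 1.03 (adjusted p = 0.125). All 4 P72 arrays lay above all R72 arrays for Ccl4 at 2 h, as in 4.27% of all genes, while at 4 h they overlapped. Within scan dates the Ccl4 difference at 2 h was 0.66 and 0.70, and at 4 h it was 0.27 on the 1 date that holds both.

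Ccl7 at 4 h was the other case without overlap in that direction, which 5.02% of all genes shared. Its difference was 0.62, with an interval from -0.05 to 1.29 (limma, adjusted p = 0.448), and 0.67 ± 0.21 on the second probe (adjusted p = 0.124). In the authors' deposited value table it was 0.61 (limma, adjusted p = 0.0169). Ccl2 differed by -0.09 at 2 h and 0.24 at 4 h, with intervals from -0.68 to 0.50 and from -0.35 to 0.82. At 0 h, Ccl12 was at -0.73 ± 0.28 (adjusted p = 0.34) and Ccl5 at -0.48 ± 0.20 (adjusted p = 0.407) in P72 minus R72. Without P72 replicate 2 at 0 h, whose levels are the highest of its group for both, these became -1.05 (adjusted p = 0.0404) and -0.74 (adjusted p = 0.0251), so 2 chemokines were then called lower in P72.

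The response itself, the difference from 0 h, was also compared between the genotypes. At 4 h the P72 response exceeded the R72 response by 0.86 ± 0.40 for Ccl12 (limma, adjusted p = 0.863), 0.67 ± 0.42 for Ccl2 (adjusted p = 0.986) and 0.62 ± 0.28 for Ccl5 (adjusted p = 0.862). All 7 estimates were above 0 at 4 h and 5 of 7 at 2 h, where Ccl12 differed by 1.01 ± 0.40 (adjusted p = 0.934). None was called by limma at 2 h or 4 h, beside 0.00487% and 0% of all genes, and 1 and 2 had an unadjusted p under 0.05. These estimates share the untreated arrays, in which Ccl12 and Ccl5 were lower in P72 without passing the test.

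**Figure D2:**
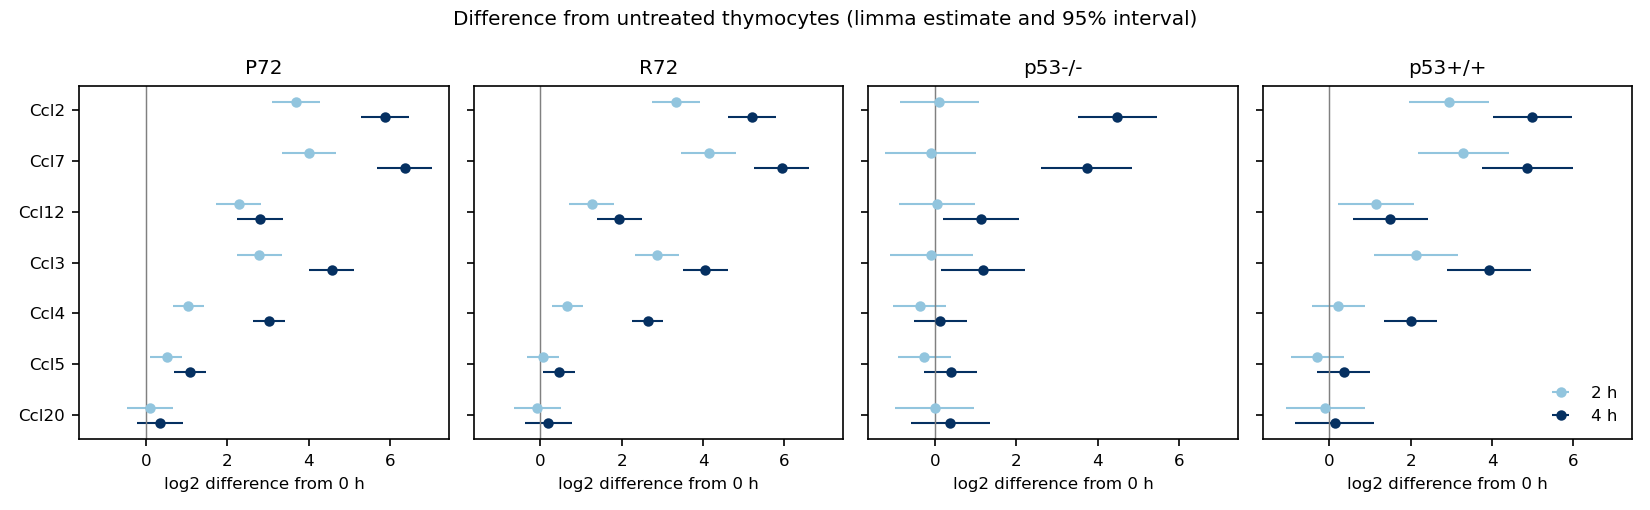
Difference from untreated thymocytes (log2 scale, limma estimate with its 95% interval) at 2 h and 4 h for each chemokine in P72, R72, p53-/- and p53+/+ thymocytes; the 2 panels on the right use 1 irradiated array for each time and have wider intervals. In p53-/- the 2 h estimates lie near 0 and at 4 h Ccl2 (4.49) and Ccl7 (3.73) stand apart from Ccl3 (1.18) and Ccl4 (0.14).

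In p53-/- thymocytes 2 chemokines rose, both at 4 h. None of the 7 chemokines was called higher on the p53-/- array at 2 h (0.804% of all genes). Ccl2 and Ccl7 were called on the p53-/- array at 4 h (0.19% of all genes). The Ccl7 call was lost with slide as a fixed block and with normexp background correction. Ccl3 and Ccl4, which rose in p53+/+, were 11.1-fold and 4.18-fold lower in p53-/- than in p53+/+ thymocytes at 4 h. These comparisons rest on 1 array for each irradiated genotype and time, which the fit over all 32 arrays assumes to vary like the arrays of the other groups.

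Ccl2 was at -4.04 and -3.94 on the untreated p53-/- arrays, at -3.88 at 2 h and at 0.50 at 4 h, and at -4.73 and -4.44, -1.64 and 0.40 on the matching p53+/+ arrays, where 1 of 2 untreated arrays was well above background. At 2 h the p53-/- array lay with the untreated ones, and at 4 h both genotypes were at nearly one level. The difference from untreated at 2 h was 0.11 ± 0.50 in p53-/- (limma, adjusted p = 0.977) and 2.95 ± 0.50 in p53+/+ (7.7-fold, adjusted p = 0.000594), and the responses differed by -2.83 ± 0.70 (adjusted p = 0.0365). At 4 h it was 4.49 ± 0.50 in p53-/- (22.4-fold, adjusted p = 5.09e-05) and 4.99 ± 0.50 in p53+/+ (31.8-fold, adjusted p = 2.64e-07). With normexp background correction these 4 h differences were 3.16 in p53-/- and 3.23 in p53+/+, so their size depends on the background correction. The genotypes differed at 4 h by 0.09 ± 0.57, with an interval from -1.03 to 1.22 (adjusted p = 0.932).

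Ccl7 followed the same course, with -5.23 and -4.91 untreated, -5.17 at 2 h and -1.34 at 4 h in p53-/-, and -5.99 and -5.66, -2.53 and -0.96 in p53+/+, where 1 of 2 untreated arrays was well above background. The p53-/- array at 2 h again lay among the untreated p53-/- arrays. The difference from untreated was -0.10 ± 0.57 at 2 h and 3.73 ± 0.57 at 4 h in p53-/- (13.2-fold at 4 h, limma, adjusted p = 0.00386), and 3.29 ± 0.57 and 4.87 ± 0.57 in p53+/+ (adjusted p = 0.000832 and 2.89e-06). The responses differed by -3.39 ± 0.81 at 2 h (adjusted p = 0.0275) and by -1.14 ± 0.81 at 4 h (adjusted p = 0.424). With slide as a fixed block the p53-/- value at 4 h was 3.56 (adjusted p = 0.058), and with normexp background correction 1.80 (adjusted p = 0.912).

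On the p53-/- array at 4 h 39 genes were called higher than untreated, 0.19% of the 20533 with a value, and Ccl2 and Ccl7 were 2 of them. At 2 h in p53-/- 0 of the 7 were called higher by limma, beside 0.804% of all genes, and 0 had an unadjusted p under 0.05. In p53+/+ 3 of 7 were higher at 2 h (3.35% of all genes) and 5 at 4 h (18.3%). Between 2 h and 4 h in p53-/-, 18 genes rose (0.0877%), Ccl2 by 4.37 ± 0.57 (limma, adjusted p = 0.000334) and Ccl7 by 3.83 ± 0.66 (adjusted p = 0.0082) among them. In p53+/+ only Ccl4 of the 7 was called over that step (1.78 ± 0.38, adjusted p = 0.0174, beside 1.21% of all genes). The step itself was not called as different between the genotypes for any chemokine by limma (0.122% of all genes called in either direction), with 2.33 ± 0.81 for Ccl2 (adjusted p = 0.612), and 3 had an unadjusted p under 0.05. Without either untreated p53-/- array the 4 h calls held, at 4.44 and 4.54 for Ccl2 (adjusted p = 0.000686 and 0.000968) and 3.57 and 3.89 for Ccl7 (adjusted p = 0.0433 and 0.0253).

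Ccl3 was at -6.15 and -5.09 untreated, -5.71 at 2 h and -4.44 at 4 h in p53-/-, and at -5.29 and -4.50, -2.76 and -0.97 in p53+/+. The p53-/- array lay within the untreated range at 2 h and above it at 4 h, and both irradiated p53+/+ arrays lay well above theirs. Irradiated p53-/- minus irradiated p53+/+ was -2.95 ± 0.60 at 2 h (7.73-fold lower, limma, adjusted p = 0.00549) and -3.47 ± 0.60 at 4 h (11.1-fold lower, adjusted p = 0.000843). The responses differed by -2.22 ± 0.74 at 2 h (adjusted p = 0.162) and -2.74 ± 0.74 at 4 h (adjusted p = 0.0405). The 4 h call on the responses was lost without untreated p53-/- replicate 1 (-2.21, adjusted p = 0.133) or untreated p53+/+ replicate 1 (-2.35, adjusted p = 0.117).

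Ccl4 was at -2.14 and -1.80 untreated, -2.34 at 2 h and -1.83 at 4 h in p53-/-, and at -1.81 and -1.72, -1.55 and 0.23 in p53+/+. The p53-/- values at both times were within or below the untreated range, and in p53+/+ the 4 h array alone was clearly higher. The difference from untreated at 4 h was 0.14 ± 0.33 in p53-/- (limma, adjusted p = 0.984) and 2.00 ± 0.33 in p53+/+ (4-fold, adjusted p = 0.000184). Irradiated p53-/- minus p53+/+ at 4 h was -2.06 ± 0.38 (4.18-fold lower, adjusted p = 0.00151), and the responses differed by -1.86 ± 0.47 (adjusted p = 0.0279). That call was lost without untreated p53-/- replicate 1 (-1.68, adjusted p = 0.0917), p53+/+ replicate 1 (-1.81, adjusted p = 0.0657) or p53+/+ replicate 2 (-1.91, adjusted p = 0.0524). Median centring also ended the response calls at 4 h, at -2.20 for Ccl3 (adjusted p = 0.0514) and -1.32 for Ccl4 (adjusted p = 0.0901). With normexp background correction the genotype differences at 4 h were -2.04 for Ccl3 (adjusted p = 0.0832) and -1.68 for Ccl4 (adjusted p = 0.0511).

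**Figure D3:**
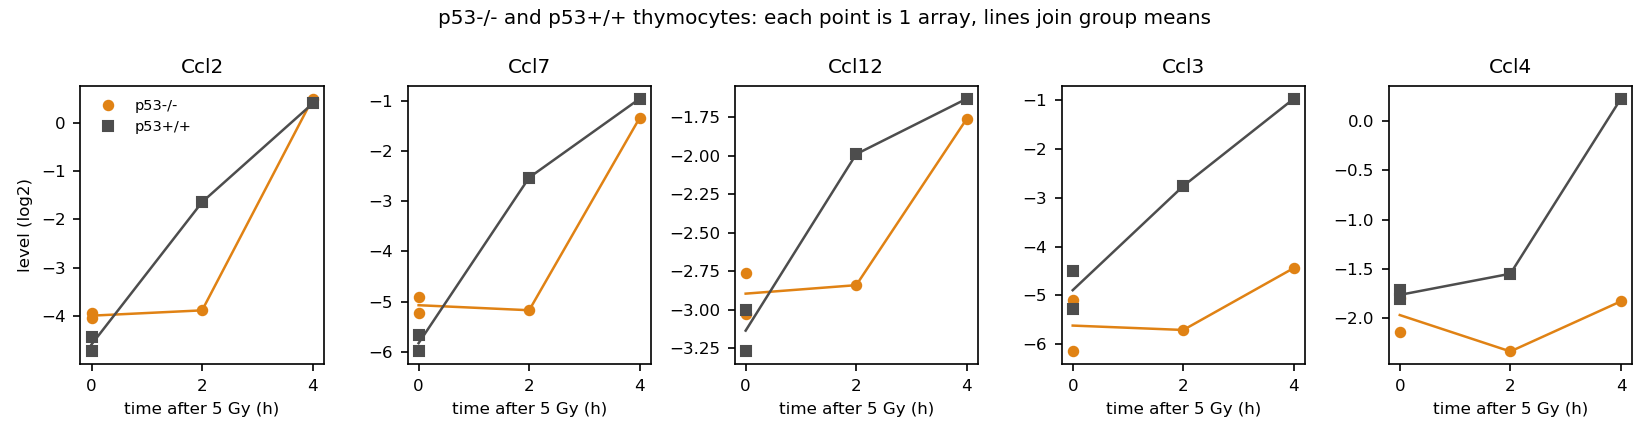
Level (log2 signal minus the log2 75th percentile of the array) of 5 chemokines against hours after 5 Gy in p53-/- and p53+/+ thymocytes, 1 point for each array, with lines through the group means. For Ccl2, Ccl7 and Ccl12 the p53-/- array lies with the untreated arrays at 2 h and near the p53+/+ array at 4 h, whereas for Ccl3 and Ccl4 it lies below the p53+/+ array at both times.

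Ccl12 was at -3.03 and -2.76 untreated, -2.84 at 2 h and -1.76 at 4 h in p53-/-, and at -3.27 and -3.00, -1.99 and -1.63 in p53+/+. Its p53-/- difference at 4 h was 1.13 ± 0.47 (limma, adjusted p = 0.505) and its p53+/+ difference 1.5 ± 0.47 (adjusted p = 0.0216), which was lost without untreated p53+/+ replicate 1 (1.37, adjusted p = 0.0859), with median centring (0.92, adjusted p = 0.113), with quantile normalization (1.18, adjusted p = 0.0735) and in the authors' deposited values (0.77, adjusted p = 0.0925). Ccl5 was at 2.93 and 2.96 untreated, 2.69 at 2 h and 3.34 at 4 h in p53-/-, and at 3.12 and 3.29, 2.92 and 3.57 in p53+/+, and neither genotype passed the test at either time. Ccl20 lay between -5.78 and -5.10 on the p53-/- arrays and between -5.54 and -5.30 on the p53+/+ arrays, and was not well above background on either irradiated p53+/+ array. None of the 3 was called as different between the genotypes at either time, and the widest gap was -0.86 ± 0.55 for Ccl12 at 2 h (limma, adjusted p = 0.466).

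At 2 h the genotypes differed in 3 chemokines, all lower in p53-/- (1.77% of all genes), and the responses in 2, both lower (1.16%). At 4 h 2 were lower in p53-/- (10.1% of all genes) and 2 responses were lower (2.76%). With the 2 h and 4 h arrays averaged, 1 chemokine was higher after irradiation in p53-/- (0.74% of all genes) and 5 in p53+/+ (13.3%). The p53-/- call is Ccl2 at 2.30 ± 0.41 (limma, adjusted p = 0.00576), lost without untreated p53-/- replicate 1 or 2 (adjusted p = 0.0713 and 0.0752) and with slide as a fixed block (2.20, adjusted p = 0.0539). The irradiated genotypes differed in 3, lower in p53-/- (13.2%), and the responses in 2, Ccl3 at -2.48 ± 0.60 (adjusted p = 0.0187) and Ccl7 at -2.27 ± 0.66 (adjusted p = 0.0472), beside 3.16% of all genes. The Ccl3 call was lost without p53-/- replicate 1 (adjusted p = 0.112) or p53+/+ replicate 1 (adjusted p = 0.0829), and the Ccl7 call without any one of the 4 untreated arrays (adjusted p between 0.0928 and 0.146) and with median centring (-1.91, adjusted p = 0.0659). All of these calls on averaged times were lost when the 8 p53-/- and p53+/+ arrays were fitted alone, with 2.30 ± 1.44 for Ccl2 in p53-/- (limma, adjusted p = 0.585), 3.97 ± 1.44 in p53+/+ (adjusted p = 0.119) and -3.21 ± 0.76 for Ccl3 between the irradiated genotypes (adjusted p = 0.0618). Untreated p53-/- and p53+/+ thymocytes differed in none by limma (0.706% of all genes called), and 0 had an unadjusted p under 0.05. These counts use the selected probes. With the times averaged, the second Ccl7 probe was called in p53-/- at 2.04 ± 0.29 (limma, adjusted p = 0.00176). The selected probe was at 1.81 ± 0.47 there (adjusted p = 0.0631). The response difference on the second probe was -1.7 ± 0.42 (adjusted p = 0.0192).

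Ordered by mean level over the 12 groups, Ccl2, Ccl7, Ccl12, Ccl4, Ccl5 and Ccl20 were highest in P72 at 4 h and Ccl3 on the p53+/+ array at 4 h (-0.97), next to P72 at 4 h (-1.08 ± 0.35, SD, n = 4), and these neighbours overlap. The p53-/- array at 4 h was at rank 3 of 12 for Ccl2 and rank 4 for Ccl7, above every 2 h group, but at rank 7 for Ccl3 and rank 8 for Ccl4, below every other 4 h group. Over all 7 orders, 50 of 77 pairs of neighbouring groups overlapped in their arrays, and many groups hold 1 or 2 arrays, so the order within a time is not resolved.

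Other CC chemokines changed too, beside 9.65% and 35.8% of all genes higher at 2 h and 4 h in P72, and 6.25% and 28.8% in R72. Of 14 in the list 12 were on the array and 10 were tested: 3 rose in P72 at 2 h and 9 at 4 h, 0 by limma (0 at an unadjusted p under 0.05) and 7 in R72. By limma 0 rose on the p53-/- array at 4 h, where 3 had an unadjusted p under 0.05, and 5 rose on the p53+/+ array. Ccl9, a ligand of Ccr1, was 1.99 ± 0.25 higher in P72 at 4 h (limma, adjusted p = 2.27e-06) and 1.2 ± 0.25 in R72 (adjusted p = 0.00062). Ccl6, related to Ccl9, was 1.54 ± 0.22 higher in P72 (adjusted p = 1.19e-05) and 1.64 ± 0.37 on the p53+/+ array at 4 h (adjusted p = 0.0029). Ccl24, an eosinophil chemoattractant, was 1.67 ± 0.29 higher in R72 (adjusted p = 0.000112). Ccl17, a ligand of Ccr4, was 1.23 ± 0.20 higher in P72 (adjusted p = 3.31e-05) and 0.86 ± 0.20 in R72 (adjusted p = 0.00148). On the p53-/- array at 4 h Ccl9 was at 1.34 ± 0.41 (adjusted p = 0.265). The median difference at 4 h over the 10 was 1.59 in P72 and 0.88 in R72, 0.45 on the p53-/- array and 1.24 on the p53+/+ array.

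The receptor counts at 4 h stand beside the same 35.8% and 28.8% of all genes higher. Of 14 receptors and scavengers 12 were tested, and Ccr1 was well above background on 0 arrays. In P72 at 4 h 10 rose and 1 fell, in R72 8 rose and 1 fell, on the p53-/- array at 4 h 0 changed by limma (1 at an unadjusted p under 0.05), and on the p53+/+ array 6 rose and 1 fell. Ccrl2, an atypical receptor that binds chemerin, was 2.81 ± 0.31 higher in P72 (limma, adjusted p = 5.45e-07) and 2.29 ± 0.31 in R72 (adjusted p = 1.16e-05). Ccr2, the receptor of Ccl2, Ccl7 and Ccl12, was 1.51 ± 0.19 higher in P72 (adjusted p = 2.45e-06), with 1.38 ± 0.32 on the p53+/+ array at 4 h (adjusted p = 0.00384) and 0.80 ± 0.32 on the p53-/- array (adjusted p = 0.479).

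Of 16 genes of the NF-kB pathway and cytokines that induce it, 15 were tested. At 4 h 12 rose in P72 (35.8% of all genes) and 11 in R72 (28.8%), 2 on the p53-/- array (0.19%) and 5 on the p53+/+ array (18.3%). Il1b, an inflammatory cytokine, had mean levels of -3.53, -0.68 and 1.88 at 0, 2 and 4 h in P72, -2.93, -1.04 and 1.33 in R72, -3.47, -3.23 and -0.64 in p53-/- and -3.67, -1.41 and 1.77 in p53+/+. It was 2.83 ± 0.50 higher on the p53-/- array at 4 h (limma, adjusted p = 0.0145) and 5.44 ± 0.50 on the p53+/+ array (adjusted p = 8.35e-08), a difference of responses of -2.61 ± 0.71 (adjusted p = 0.0418). Bcl3, an atypical inhibitor protein of the pathway, was 2.60 ± 0.18 higher in P72 (adjusted p = 7.21e-10) and 2.09 ± 0.18 in R72 (adjusted p = 2.97e-08), and 0.79 ± 0.30 on the p53-/- array (adjusted p = 0.409). Icam1, an adhesion molecule, was 1.28 ± 0.12 higher in P72 (adjusted p = 9.85e-08) and 0.88 ± 0.12 in R72 (adjusted p = 1.64e-05). Il6, another inflammatory cytokine, was well above background on 0 of the untreated arrays of any genotype and on every 4 h array, the p53-/- one included (adjusted p = 0.0055 there).

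The genes whose levels ran closest to each chemokine over the 32 arrays were named by Pearson's r. For Ccl2 they were Il1b (r = 0.962), Ier3 (0.962) and Mybpc2 (0.946), and for Ccl7 Ier3 (0.95), Mybpc2 (0.946) and Il1b (0.943). For Ccl12 they were Ms4a6b (0.947), Tubb6 (0.939) and Mybpc2 (0.932). For Ccl3 they were Atf3 (0.959), Dglucy (0.959) and Glipr2 (0.956), and for Ccl4 Eif2ak3 (0.952), Furin (0.951) and Tex2 (0.95). Among these closest 3, neither shares a gene with the first 3 chemokines, and genes further down were not compared. For Ccl5 they were Zmynd15 (0.955), Il12b (0.938) and Ebi3 (0.908), and for Ccl20 Pot1b (0.726), Paqr8 (0.678) and Olfr1344 (0.661). The 32 points share the arrays, the scaling and the 12 groups, so these values describe the arrays and carry no test.

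Some markers of other cell types rose at 4 h, when 35.8% of all genes rose in P72, 28.8% in R72, 0.19% on the p53-/- array and 18.3% on the p53+/+ array. Of 13 macrophage and monocyte markers tested 8 rose at 4 h in P72 and 4 in R72, by limma 0 on the p53-/- array (0 at an unadjusted p under 0.05) and 2 on the p53+/+ array. Their summed signal, in units of the array's 75th percentile, ranged from 29.7 to 56.6 at 0 h, 47.9 to 62.3 at 2 h and 79.4 to 106 at 4 h in P72, and from 48.7 to 72.7, 44.2 to 64.7 and 67.7 to 106 in R72. In p53-/- it was 56.1 and 56.6 untreated, 42.7 at 2 h and 52.5 at 4 h, and in p53+/+ 41.9 and 42, 35.9 and 71.7. At 2 h the P72 range overlapped that of 0 h, and on the p53-/- array at 4 h the sum was below both untreated values. All of the 13 but Mertk and Cd163 were well above background on all 32 arrays, among them Adgre1, Cd68 and Csf1r, and Vsig4 was so on 1.

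All 12 neutrophil markers rose in P72 at 4 h, 1 in R72, 0 by limma on the p53-/- array (3 at an unadjusted p under 0.05) and 10 on the p53+/+ array. Their summed signal was 35.4 to 63.1, 40.3 to 72.9 and 71.5 to 148 at 0, 2 and 4 h in P72, 68.5 to 88.3, 49.7 to 104 and 68.1 to 139 in R72, 39.7, 41.9 and 49 in p53-/-, and 29.6 to 30.4, 42.7 and 90.3 in p53+/+. Of 11 dendritic cell markers 8 rose in P72 at 4 h and 7 in R72, and of 10 thymic epithelial markers 8 and 4. On the p53-/- array at 4 h by limma 0 of either list was called (0 and 4 at an unadjusted p under 0.05), and on the p53+/+ array 7 and 4. In P72 the dendritic cell sum was 14 to 24.2, 25.8 to 31.3 and 39.2 to 45.7 at 0, 2 and 4 h and the thymic epithelial sum 6.4 to 17.1, 20 to 31.9 and 35.9 to 48.3, so both lay above the 0 h range at 2 h already, together with the chemokines. In R72 both ranges at 2 h overlapped those at 0 h. The dendritic cell sum on the p53-/- array at 4 h was 15.7, against 16.9 and 18.7 untreated, and the thymic epithelial sum 12.7, against 22.3 and 23.4. The stromal and endothelial sum there was 4.29, against 3.22 and 3.41 untreated. Stromal and endothelial markers rose in 2 of 8 in P72 and in R72, and B cell markers in 1 of 4, with 1 falling. Double positive thymocyte markers had a summed signal between 902 and 1320 in all groups, with 1 of 12 higher and 4 lower in P72 at 4 h. The part of these cell types in the chemokine increases of any genotype was not tested.

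**Figure D4:**
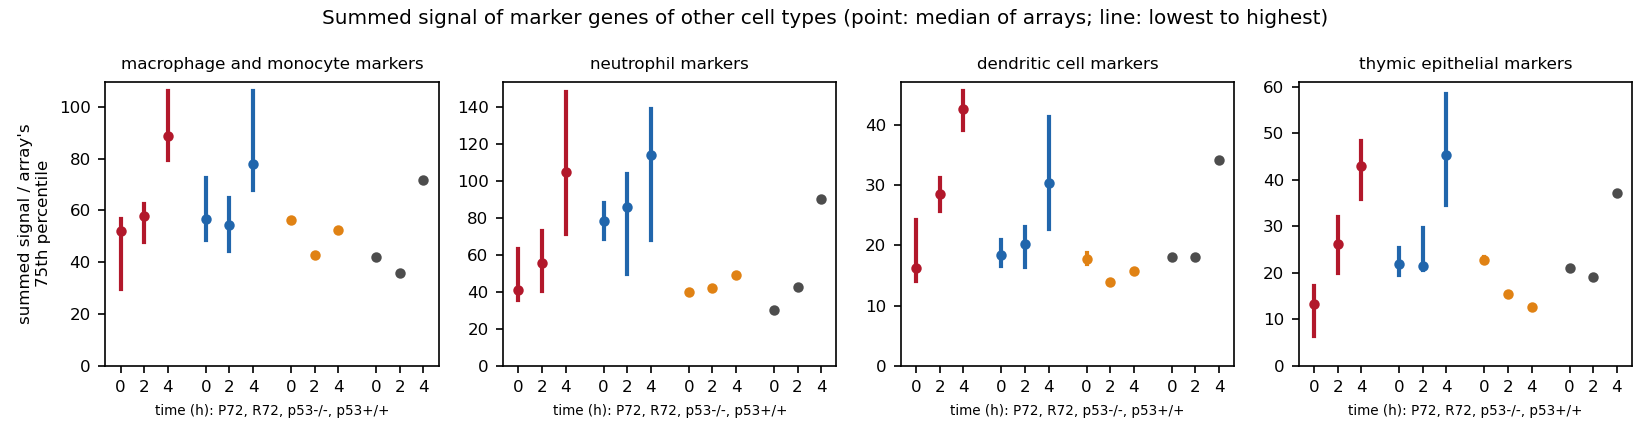
Summed signal of marker genes of 4 other cell types (linear, in units of the array's 75th percentile, axes starting at 0) at 0, 2 and 4 h in P72, R72, p53-/- and p53+/+ thymocytes, with a point at the median of the arrays and a line from the lowest to the highest. In P72 and p53+/+ every sum at 4 h lies above the untreated range, in R72 the macrophage and neutrophil ranges at 0 and 4 h overlap, and on the p53-/- array at 4 h they lie at 52.5, 49, 15.7 and 12.7, near or below the untreated values apart from the neutrophil sum.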

How the data were processed

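Total RNA of thymocytes was labelled with Cy3 and hybridised to 32 single-colour Agilent arrays, per the labels' protocols. The deposited intensities are processed signals from Agilent Feature Extraction (9.5.3 per the submitters' processing notes, 9.5.3.1 and build mm7 per the file headers), which had already removed background within each array. The authors' deposited value table holds log2 values, and served as an alternative only.

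Control spots (1639 on each array) were left out and flagged outlier values (0.223%) were set to missing. Log2 was taken of each spot, the spots of a probe were averaged and the log2 75th percentile of each array was subtracted. A level thus has no unit, and the number of arrays limits its precision. The probe with the highest mean level stood for a gene. Gene names are those of the array design, of which 5190 were updated through 23070 probe accessions found in a RefSeq table. Genes well above background on at least 4 arrays were tested (20534) with limma 3.58.1 in R 4.3.3 (lmFit, eBayes, two-sided), with Benjamini-Hochberg adjustment over all of them and a threshold of 0.05. The P72 and R72 comparisons used 24 arrays and the p53 comparisons all 32. The code was tested on simulated data. Figures used matplotlib 3.10.9 under Python 3.11.15.

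Groups came from the labels. One gene of the receptor list is not reported here. Text names the 7 chemokines, up to 4 genes with the smallest p of each list for a comparison, and the 3 genes with the highest r for each chemokine. The 7 chemokines and names that are only identifiers were left out of the choice by r. Members and lists were chosen with earlier results of these data known. Alternatives were normexp background correction, median centring, quantile normalization, the authors' values, other filters, the mean of probes, blocks for replicate number, slide, scan date and Xist side, and leaving out arrays. Same-numbered P72 and R72 samples tended to deviate alike, with a median correlation of 0.124 against -0.0315 for other numbers, and 21 of 24 arrays correlated best with their own number. The reported fit did not take the numbers as pairs, so this structure stays in its spread.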

Additional observations from a re-analysis of the deposited data

Results flagged for a closer look

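Of 42 groups of 4 arrays checked for an array set apart from the other three, 2 were found, and chance gives about 1 in 20. Ccl5 was at 3.69 on R72 replicate 3 at 2 h, above the other R72 arrays at 2 h, which lay between 3.54 and 3.56. Ccl7 was at -2.12 on R72 replicate 4 at 2 h, above the others, which lay between -2.55 and -2.53.

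By the interaction test in limma, 4 chemokines had an irradiation response called lower in p53-/- than in p53+/+, 2 in each comparison below. Over all genes, 3.16% were called lower with the times averaged, 1.16% at 2 h and 2.76% at 4 h. Each irradiated genotype has 1 array for each time. As given above, the calls on averaged times and at 4 h were each lost when certain single untreated arrays were left out. The calls on the 2 h arrays were not refitted without an untreated array. With the times averaged, the differences were -2.48 for Ccl3 (adjusted p = 0.0187) and -2.27 for Ccl7 (adjusted p = 0.0472). On the 2 h arrays they were -2.83 for Ccl2 (adjusted p = 0.0365) and -3.39 for Ccl7 (adjusted p = 0.0275). On the 4 h arrays they were -1.86 for Ccl4 (adjusted p = 0.0279) and -2.74 for Ccl3 (adjusted p = 0.0405).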

How the results depend on the processing

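Counts are of the 7 chemokines called. For most alternatives the share called over all genes is not given. A lost or gained call there cannot be told apart from a shift over all genes. With the filter on all 32 arrays, which keeps only Ccl4, Ccl5 and Ccl12, P72 gave 2 at 2 h against 0 h, 3 at 4 h against 0 h and 2 between 2 h and 4 h, R72 gave 2, 2 and 1, p53-/- gave 0, p53+/+ gave 2, the irradiated genotypes differed in 1 and the responses in 1, and on the 4 h arrays these 4 counts were 0, 2, 1 and 1. With normexp, P72 and R72 at 2 h gave 3 and 1, while over all genes the share called in either direction was 2.38% and 1.73%, against 14.5% and 13% in the reported fit, p53-/- and p53+/+ 0 and 3, the p53 responses 0, and on the 4 h arrays p53-/- gave 1 and the genotype and response differences 0 and 0; the cause was not tested, but the fitted background mean of an array reached -483.7. Normexp with each array's lowest signals capped, chosen after seeing the data, called 5 between irradiated genotypes and turned Ccl20 there to -0.62 (limma, adjusted p = 0.0472). A first form of that cap gave fitted background means between 1127 and 2468.3 on 14 arrays and was not used.

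Fits within a scan date or an Xist side hold fewer arrays. On the first date P72 gave 3 at 2 h and 2 between 2 h and 4 h, and R72 gave 3 and 1. R72 at 2 h gave 1 on the second date and 0 on the third, and between 2 h and 4 h 0 on the third. On Xist high arrays P72 gave 3 at 2 h and 3 between 2 h and 4 h, and R72 3 and 0. On Xist low arrays P72 gave 1 between 2 h and 4 h, and R72 2 at 2 h and 0 between 2 h and 4 h. The authors' values called 1 between P72 and R72 at 4 h (Ccl7), 2 in p53-/- and 1 in the p53 responses. Median centring gave 3 in p53+/+, 1 in the p53 responses and 0 at 4 h, and quantile normalization and no filter each 1 and 1. The cause was not tested for these. In p53-/- the mean of probes gave 2, the 2 h array alone 0 and the 4 h array alone 2, and p53+/+ at 2 h alone gave 3. Slide as a fixed block gave 0 in p53-/-, 1 at 4 h and 1 in the responses. The 8 p53 arrays alone gave 0 in all 4 comparisons after irradiation.

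Leaving out 1 array at a time gave 5 to 6 in P72 at 2 h, 6 to 6 at 4 h and 4 to 5 between them, and 4 to 5, 5 to 6 and 4 to 5 in R72. P72 minus R72 gave 0 to 2 at 0 h and 0 to 0 at 2 h, 4 h and in both response comparisons. In p53-/- it gave 0 to 0, in p53+/+ 4 to 4, in untreated genotypes 0 to 0 and in the responses 0 to 1. On the 4 h arrays it gave 2 to 2 in p53-/-, 4 to 5 in p53+/+ and 0 to 2 in the responses. Irradiated p53 arrays have no replicate to leave out. With the replicate block p53-/- gave 2, since Ccl7 was 1.99 (limma, adjusted p = 0.0413). Same-numbered samples correlated between -0.273 and 0.535 in their deviations (60 pairs), and 21 of 24 arrays correlated best with their own number. Of single chemokine values, 2587 kept direction and call, 142 lost and 23 gained a call, 170 uncalled values moved and 1 reversed. Dim probes limit Ccl7 and Ccl3 at 0 h and Ccl20 throughout.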
